A study of Danio rerio with 6 samples.

Results

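The genes described here are the ligands, receptors and feedback inhibitors of leptin, interleukin 11 and gp130 signalling: lepa, lepb, il6, il11a and il11b for ligands, lepr, il6st and lifra for receptors, and socs3a and socs3b for feedback. They were taken by zebrafish symbol, and all 10 were found among 32520 genes of the count table. They were chosen by function and selected on their measured read counts in mutants and wild type, in particular on ligands near 0 counts in wild type. Values of these 10 genes are therefore given as a description, with no test. Leptin, interleukin 6 and interleukin 11 are secreted cytokines with a shared helical fold. Interleukin 6 and interleukin 11 bind their own receptor chains and then recruit gp130, encoded by il6st, while leptin binds lepr, a receptor of the same structural family. These receptors carry Janus kinases, which phosphorylate STAT3, and STAT3 induces SOCS3, an inhibitor that binds gp130 and the leptin receptor and shuts the kinases down. Teleost fish carry duplicated copies of several of these genes, and in zebrafish lepb and il11a are known as transcripts of regenerating fins and hearts.

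RNA was extracted from entire zebrafish of 5 days after fertilization, in 3 wild type libraries and 3 libraries carrying the sas10 mutation. Sas10, encoded by utp3, is a nucleolar factor of small ribosomal subunit assembly. The labels give no allele, strain, clutch or number of embryos per library, so the p-values below measure the spread between these samples. Libraries held 17599625 to 19718753 counted read pairs. They are named by their column headings, wt11, wt12 and wt13 for wild type and s1, s2 and s3 for mutants. The targeted transcript utp3 was at 32.3 ± 4.43 CPM (counts per 1000000 on scaled library sizes) in wild type and 10.8 ± 0.421 CPM in mutants (SD, n = 3 each; log2 fold change -1.58 ± 0.13 SE, edgeR adjusted p = 1.53e-06). Of 21708 genes tested, 6614 rose and 6894 fell at an adjusted p under 0.05, which is 62.2% of them, 30.5% upward and 31.8% downward. Whole bodies were sequenced, so more cells of a type and more RNA per cell cannot be told apart.

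The leptin transcripts were close to absent from wild type and abundant in mutants. The gene lepb (ENSDARG00000045548; GRCz11 chromosome 4, 19031768 to 19033805, minus strand) had 0 counts in wt11, 1 in wt12 and 1 in wt13. In the mutants it had 2924 counts in s1, 3417 in s2 and 3361 in s3. The mutant libraries lay close together, with a mean of 172.6 ± 13.6 CPM (SD, n = 3), while the wild type group held 2 counts in all. The ratio of the summed, scaled counts was 4880.0, with an exact 95% counting interval of 1351 to 40302. By its fitted log2 fold change of 12.004 ± 0.25 (SE), lepb stood at rank 1 among the genes tested. This SE comes from the test statistic and understates the uncertainty left by 2 wild type counts. The DESeq2 fit gave an SE of 1.03.

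The second leptin gene, lepa (ENSDARG00000091085; chromosome 18, 10689772 to 10690365, plus strand), encodes the other fish leptin. It had 0, 7 and 2 counts in wt11, wt12 and wt13. In s1, s2 and s3 it had 412, 400 and 387 counts. The genotypes did not overlap, and the mutant libraries differed little, at 21.4 ± 1.18 CPM (SD, n = 3). The ratio to wild type was 134.0 with a counting interval of 70.4 to 293.8, and the fitted log2 fold change was 7.01 ± 0.37 (SE; rank 13). Library wt12 held 7 of the 9 wild type counts, and without it the fitted value was 8.47. Compared per exon length, as transcripts per 1000000 (TPM) computed from the counts, lepb stood above lepa in each mutant library, by factors of 6.04, 7.27 and 7.39.

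Both interleukin 11 genes showed the same near absence in wild type. The counts of il11a (ENSDARG00000037859; chromosome 16, 12611362 to 12617155, plus strand) were 0, 2 and 4 in wt11, wt12 and wt13. The mutant counts were 601 in s1, 1029 in s2 and 592 in s3. Every mutant library was thus far above every wild type library, and s2 was the highest of them. The mutant mean was 39.7 ± 14.0 CPM, the ratio 372.5 (interval 170.9 to 1016) and the log2 fold change 8.46 ± 0.46 (SE; rank 3). Without wt13, which held 4 of the 6 wild type counts, the fitted value was 9.37. Its duplicate il11b (ENSDARG00000058557; chromosome 19, 10429810 to 10432134, minus strand) had 0, 0 and 2 counts in wild type. It had 176, 291 and 173 counts in s1, s2 and s3, again with s2 highest. The ratio was 321.9 (interval 88.8 to 2664) and the log2 fold change 8.09 ± 0.53 (SE; rank 5). The fitted value was 10.74 without wt13, the library with both wild type counts. No wild type count is left in that fit, so it does not estimate a ratio. Between the duplicates the proportion was steady, with il11a at 2.99, 3.10 and 3.00 times the TPM of il11b in s1, s2 and s3.

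Interleukin 6, the founding cytokine of the family, was the scarcest of the ligands in mutants. The gene il6 (ENSDARG00000102318; chromosome 19, 2699136 to 2707048, minus strand) had 1, 1 and 2 counts in wt11, wt12 and wt13. It had 12, 36 and 11 counts in s1, s2 and s3, so the genotypes did not overlap, but s2 alone held most of the mutant counts. The ratio was 14.8 with a counting interval of 5.50 to 56.3, and the log2 fold change was 3.78 ± 0.74 (SE), or 3.00 without s2. Together the 5 ligands had 23 counts over the wild type libraries and 13822 over the mutants. All 5 passed the filter on low counts through the mutant libraries alone, so a gene of this kind could be tested only where it was high in mutants.

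**Figure D1:**
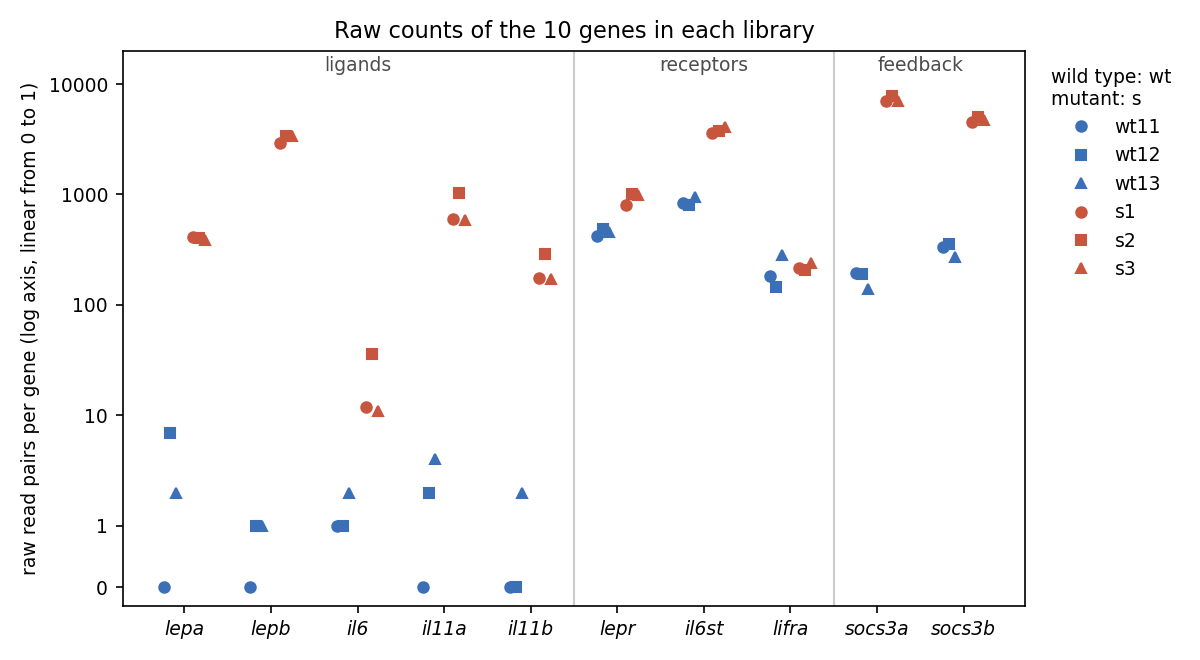
Raw read pairs of each gene (y axis, logarithmic above 1 and linear from 0 to 1) in the 3 wild type libraries (blue) and the 3 mutant libraries (red), with 1 symbol per library. The 5 ligands sit at 0 to 7 counts in wild type and 11 to 3417 in mutants, and lifra is the only gene whose genotypes overlap.

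The receptors were expressed in both genotypes and differed less. The shared signalling subunit il6st (ENSDARG00000104693; chromosome 10, 5788620 to 5821584, minus strand) had 831, 806 and 954 counts in wt11, wt12 and wt13. Its counts in s1, s2 and s3 were 3633, 3777 and 4062. The mutant libraries were all above wild type, with 204.1 ± 6.82 against 45.8 ± 3.45 CPM (SD, n = 3 each), a 4.45-fold difference (log2 2.15 ± 0.11 SE). The leptin receptor lepr (ENSDARG00000070961; chromosome 6, 31184058 to 31233696, minus strand) had 419, 491 and 455 counts in wild type and 797, 1000 and 993 in s1, s2 and s3. The groups did not overlap, and the difference was 2.06-fold (49.6 ± 5.76 against 24.1 ± 1.39 CPM; log2 1.04 ± 0.12 SE). The fold changes of the leptin ligands and of their receptor were very unequal. The ligands were selected as near 0 counts in wild type, so nothing is read from this contrast.

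A different picture was seen for lifra (ENSDARG00000098857; chromosome 5, 8417184 to 8483537, minus strand), which encodes a receptor for leukemia inhibitory factor that pairs with gp130. It had 181, 144 and 283 counts in wt11, wt12 and wt13, and 218, 207 and 240 in s1, s2 and s3. The mutant values lay inside the wild type range, and the log2 fold change was 0.14 ± 0.21 (SE). The wild type libraries spread widely here. The fitted value was -0.06 without wt12 and 0.44 without wt13, and in the fit without wt13 the gene was called higher. Its duplicate lifrb, which is not one of the 10 genes, rose from 5.36 ± 0.386 to 86.4 ± 15.2 CPM (log2 4.01 ± 0.16 SE, edgeR adjusted p = 3.59e-09). On the TPM scale the order of the duplicates differed between genotypes: lifra was at 5.41 ± 2.32 and lifrb at 2.69 ± 0.407 in wild type, and in mutants lifra was at 5.56 ± 0.335 and lifrb at 41.1 ± 7.82 (SD, n = 3 each). Whether the duplicates differed in their response was not tested.

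The feedback inhibitor genes were among the transcripts with the largest mutant counts of the set. The gene socs3a (ENSDARG00000025428; chromosome 3, 57423137 to 57425961, minus strand) had 195, 189 and 140 counts in wt11, wt12 and wt13. It had 6953, 7785 and 6968 counts in s1, s2 and s3. All mutant libraries were above wild type, at 386.7 ± 32.0 against 9.31 ± 1.88 CPM (SD, n = 3 each), a 41.5-fold difference (log2 5.38 ± 0.17 SE; rank 29). The duplicate socs3b (ENSDARG00000026611; chromosome 12, 34258139 to 34277465, plus strand) had 334, 355 and 270 counts in wild type and 4551, 4976 and 4727 in s1, s2 and s3. Its difference was 14.9-fold (253.8 ± 14.1 against 17.02 ± 2.70 CPM; log2 3.90 ± 0.14 SE; rank 102). Exons of socs3b overlap those of pgs1 and of ENSDARG00000115872 on the other strand, and the counting used no strand option, so the origin of some reads is uncertain. These genes had 334 and 32 counts over the mutants, against 14254 for socs3b.

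The duplicates of socs3 also changed places. Per exon length, socs3a was below socs3b in each wild type library, with ratios of 0.68, 0.62 and 0.61 in wt11, wt12 and wt13. In s1, s2 and s3 it was above it, with ratios of 1.79, 1.83 and 1.72. The ratios of the genotypes did not overlap. The uncertain origin of some socs3b reads bears on these ratios. Whether the socs3 duplicates differed in their response was not tested.

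Counted over the set, all 3 mutant libraries lay above all 3 wild type libraries for 9 of the 10 genes, the exception being lifra. Of all genes tested, 33.5% had mutants above wild type throughout and 34.1% below, which is 67.6% without overlap. In the fit across all genes 9 of the 10 were called higher (10 without wt13, where lifra was called too), 0 lower, against 30.5% and 31.8% of all genes. The count of genes lower was 0 as well at an unadjusted p under 0.05 and with DESeq2 or limma voom. The genes were chosen with this contrast known, and nothing is read from these counts. The median log2 fold change was 4.64 over the 10 genes and -0.04 over all genes tested.

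Levels per exon length give the order of the transcripts within a genotype. In mutants lepb led with 562.8 ± 51.6 TPM (SD, n = 3), followed by socs3a with 383.4 ± 32.1 and socs3b with 215.1 ± 13.0. Then came il11a with 115.4 ± 41.2, lepa with 81.7 ± 3.25, il6st with 46.6 ± 2.40 and il11b with 38.0 ± 12.7 TPM. The lowest were lepr with 15.8 ± 2.06, lifra with 5.56 ± 0.335 and il6 with 2.92 ± 2.15 TPM. Neighbours in this order were separated in all libraries except il6st from il11b and lifra from il6. Among all 32520 genes, lepb was at rank 205 by TPM in mutants and at 25544 in wild type, and socs3a was at 304 and 10034.

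Wild type gave a different order, with socs3b highest at 15.1 ± 1.43 TPM, followed by il6st at 11.08 ± 1.83, socs3a at 9.61 ± 1.06, lepr at 8.10 ± 1.02 and lifra at 5.41 ± 2.32. From il6st to lifra each gene overlapped its neighbour in this order. The ligands lay below these, between 0.126 TPM for lepb and 0.649 for lepa, and their libraries overlapped. The receptor subunit il6st stood at 1.37 ± 0.170 times the TPM of lepr in wild type and at 2.98 ± 0.283 times in mutants (SD, n = 3 each). In mutants the ligand lepb had 35.8 ± 1.59 times the TPM of its receptor gene.

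**Figure D2:**
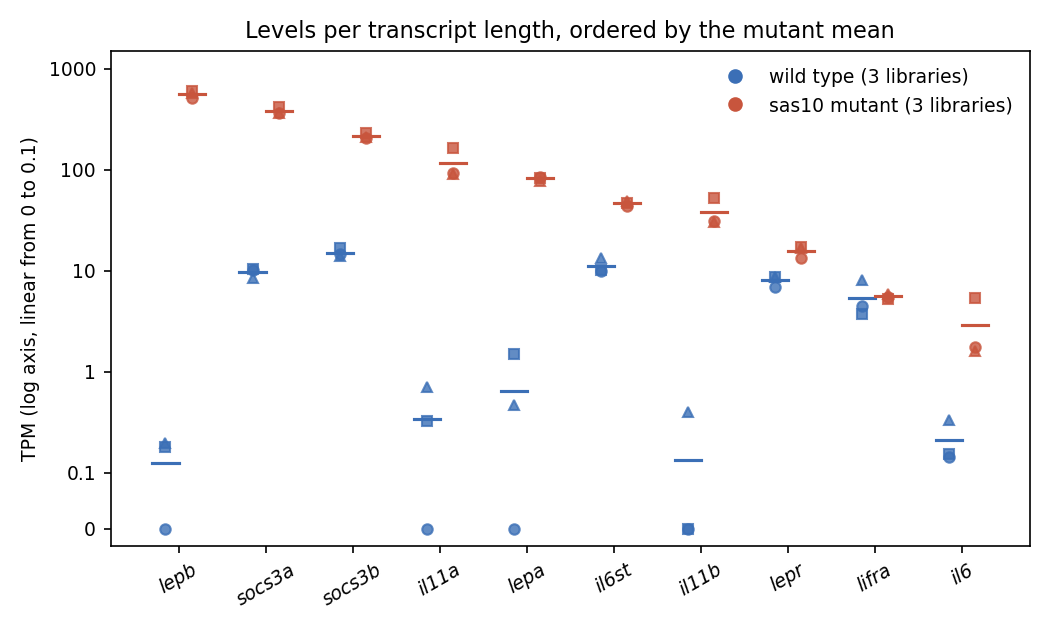
TPM of each gene per library (y axis, logarithmic above 0.1 and linear from 0 to 0.1), wild type in blue and mutant in red, with horizontal lines at the means of 3 libraries and genes ordered by the mutant mean. The gene lepb is highest in mutants at 562.8 TPM and lowest in wild type at 0.126.

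Other ligands and ligand partners of the gp130 family changed in both directions. Of 11 such genes matched, 5 passed the filter on low counts. Of these, 3 rose and 1 fell (median log2 1.34), against 30.5% and 31.8% of all genes. The ciliary neurotrophic factor gene cntf rose from 1.04 ± 0.159 to 7.74 ± 0.192 CPM (log2 2.88 ± 0.21 SE, edgeR adjusted p = 4.63e-07). The cytokine gene clcf1 was at 2.52 ± 0.663 CPM in wild type and at 7.27 ± 2.53 in mutants, a rise (log2 1.52 ± 0.29, adjusted p = 0.000895), and crlf1a, whose product in mammals is secreted together with that of clcf1, went up from 9.78 ± 0.502 to 24.7 ± 2.11 CPM (log2 1.34 ± 0.13, adjusted p = 3.53e-06). The opposite was seen for ebi3, a shared subunit of interleukins 27 and 35 in mammals, with 147, 144 and 118 counts in wt11, wt12 and wt13. Only 2, 0 and 7 counts of it were found in s1, s2 and s3, a wild type to mutant ratio of 45.2 (counting interval 23.6 to 99.5; log2 -5.45 ± 0.46, adjusted p = 1.89e-06, and -6.89 without s3). Scarce ligands such as m17, the fish leukemia inhibitory factor gene, did not pass the filter: it had 2, 3 and 7 counts in wild type and 8, 13 and 12 in mutants. The interleukin 23 subunit gene il23a, named after its counts were seen, did not pass either, with 1, 0 and 2 counts in wild type and 5, 73 and 38 in s1, s2 and s3 (ratio 38.9, counting interval 13.0 to 191.4).

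Among 10 further receptor genes, 8 were tested, of which 3 rose and 3 fell (median log2 -0.01), against 30.5% and 31.8% of all genes. Besides lifrb, the receptor for interleukin 11, il11ra, rose, with 4.56 ± 0.475 CPM in wild type and 11.3 ± 1.61 in mutants (log2 1.31 ± 0.17 SE, edgeR adjusted p = 4.45e-05). So did il12rb2, an interleukin 12 receptor chain related to gp130, with 1.21 ± 0.285 and 2.41 ± 0.378 CPM (log2 0.98 ± 0.29, adjusted p = 0.0104). The gene for the interleukin 6 receptor is il6r. Transcripts of il6r fell from 10.3 ± 1.96 to 7.43 ± 0.704 CPM (log2 -0.48 ± 0.17, adjusted p = 0.0317), with overlapping libraries. This call was lost without s2 (adjusted p = 0.087), s3 (0.112), wt11 (0.0568) or wt13 (0.135). The receptor for ciliary neurotrophic factor, cntfr, fell from 52.3 ± 1.96 to 40.5 ± 3.05 CPM (log2 -0.37 ± 0.10, adjusted p = 0.009), a call lost without s2 (adjusted p = 0.0657). The interleukin 23 receptor il23r fell by 3.80 on the log2 scale from 1.07 ± 0.229 CPM (3, 0 and 1 counts in s1, s2 and s3; wild type to mutant ratio 15.2, counting interval 5.63 to 57.4; adjusted p = 0.000327, and -5.01 without s1). Counts of osmr, for the oncostatin M receptor, were 4, 8 and 6 in wild type and 2, 1 and 1 in mutants, too few for the test.

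Downstream of the receptors, all 26 genes for Janus kinases, STATs and adaptors were tested. Of them 10 rose and 5 fell (median log2 0.19), against 30.5% and 31.8% of all genes. Among the kinases jak1, which works with gp130, rose from 76.1 ± 3.48 to 220.9 ± 27.9 CPM (log2 1.54 ± 0.12 SE, edgeR adjusted p = 8.38e-07). The copies of JAK2, the kinase of the leptin receptor, were not called: jak2a was at log2 0.07 ± 0.14 (adjusted p = 0.653) and jak2b at -0.01 ± 0.12 (adjusted p = 0.958). With tyk2 the change was a rise of log2 0.54 ± 0.15 (adjusted p = 0.00928), and jak3, a kinase of lymphocyte cytokine receptors, fell (log2 -0.998 ± 0.27, adjusted p = 0.00764). The transcription factor gene stat3 had 621, 644 and 767 counts in wt11, wt12 and wt13 and 1675, 1902 and 2117 in s1, s2 and s3. It rose 2.82-fold (log2 1.49 ± 0.12, adjusted p = 7.2e-07).

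The largest rise among these genes was that of stat1b, from 1.405 ± 0.364 to 20.3 ± 3.23 CPM (log2 3.85 ± 0.21 SE, edgeR adjusted p = 4.25e-08). Its duplicate stat1a, at 89.7 CPM in wild type, was not called (log2 -0.19 ± 0.11, adjusted p = 0.143). A rise was also found for stat6 (log2 0.97 ± 0.11, adjusted p = 1.72e-05). The interferon signal transducer gene stat2 fell (log2 -0.93 ± 0.13, adjusted p = 6.6e-05), as did ptpn11b, a copy of the phosphatase SHP2 that docks to gp130 (log2 -1.70 ± 0.27, adjusted p = 0.000333).

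Of 19 tested inhibitors other than the socs3 genes, 5 rose and 4 fell (median log2 -0.01), against 30.5% and 31.8% of all genes. The gene socs1a, another inhibitor of Janus kinases, rose from 4.41 ± 1.61 to 21.4 ± 3.58 CPM (log2 2.28 ± 0.24 SE, edgeR adjusted p = 1.36e-05). A phosphatase of JAK2 and the leptin pathway, ptpn1, also rose, with 32.4 ± 1.43 CPM in wild type and 83.5 ± 5.29 in mutants (log2 1.36 ± 0.10, adjusted p = 6.14e-07). The STAT5-induced inhibitors cisha (log2 0.97 ± 0.16, adjusted p = 0.000289) and cishb (log2 0.87 ± 0.18, adjusted p = 0.00143) rose too. The genes ptpn6, a phosphatase of blood cells (log2 -1.30 ± 0.17, adjusted p = 5.63e-05), pias1a, a STAT inhibitor (log2 -1.09 ± 0.25, adjusted p = 0.0035), and socs6a (log2 -0.74 ± 0.20, adjusted p = 0.00678) fell. None of these inhibitors reached the fitted fold change of socs3a or socs3b. The socs3 genes were chosen with this contrast known, and nothing is read from this order.

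**Figure D3:**
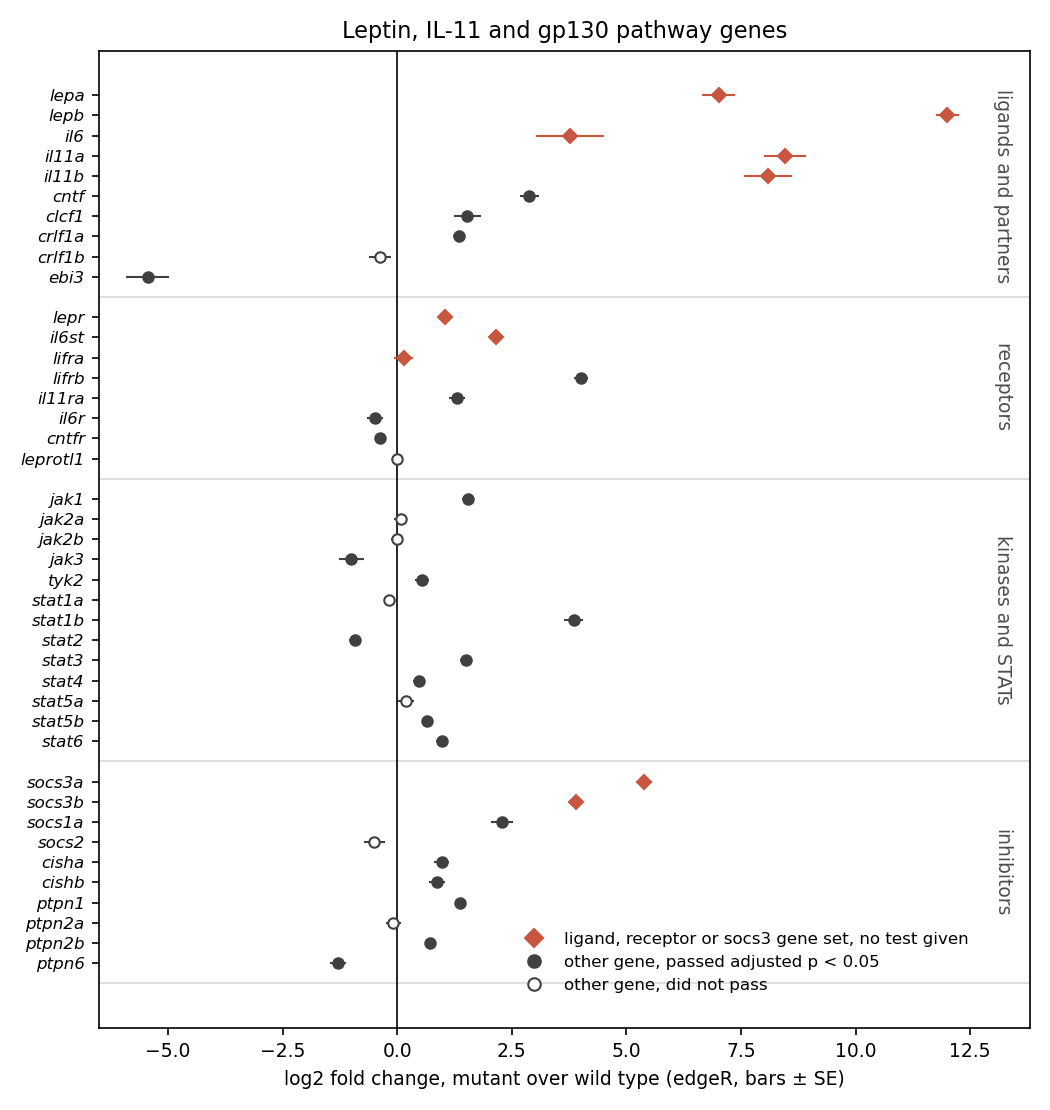
Fitted log2 fold change of mutant over wild type (x axis) for the 10 genes (red diamonds) and other pathway genes (circles, filled where the adjusted p was under 0.05). Bars are ± SE derived from the edgeR test statistic (n = 3 libraries per genotype). For lepa, lepb, il6, il11a and il11b they are shorter than the SE of DESeq2. The ligand lepb is farthest to the right at 12.004, ebi3 farthest to the left at -5.45, and jak2a and jak2b sit at 0.07 and -0.01.

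Genes known in mammals or fish as targets of STAT3 were mostly higher. Of 29 tested, 24 rose and 0 fell, with a median log2 fold change of 1.68, against 30.5% of all genes rising and 31.8% falling. The list was chosen with earlier results of these data known, and nothing is read from these counts. The count falling was 0 in edgeR also at an unadjusted p under 0.05, and with DESeq2 or limma voom. The lowest value was that of irf1a at log2 -0.05 (adjusted p = 0.914). The protease inhibitor gene timp2b rose from 12.3 ± 1.15 to 2032 ± 159.7 CPM (log2 7.36 ± 0.18 SE, edgeR adjusted p = 3.99e-10). The matrix metalloprotease genes mmp9 (8.35 ± 2.69 to 1197 ± 470.7 CPM, log2 7.16 ± 0.41, adjusted p = 8.38e-07) and mmp13a (log2 6.46 ± 0.74, adjusted p = 0.000741, and 5.82 without s2) followed. The transcription factor gene cebpb rose by log2 4.78 ± 0.18 (adjusted p = 2.03e-09). These genes answer to other signals as well, and the part of STAT3 in their change was not tested.

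The listed acute phase genes of the liver, some of which interleukin 6 family cytokines induce in mammals, split. The list does not separate genes raised in the acute phase from genes lowered in it, and the falls are not read as missing induction. Of 17 tested genes 5 rose and 9 fell (median log2 -0.82), against 30.5% and 31.8% of all genes. The fibrinogen chain genes fga and fgb rose 4.01-fold and 3.99-fold (log2 2.00 ± 0.13 SE each, edgeR adjusted p = 1.49e-07 and 1.46e-07), and fgg, named after its value was seen, rose 3.76-fold. Serum amyloid gene saa2 had 1, 2 and 1 counts in wild type and 127, 890 and 265 in s1, s2 and s3 (ratio 322.4, counting interval 125.6 to 1185; log2 8.21 ± 1.44, adjusted p = 0.00475, and 7.07 without s2). Falls were found for ahsg1 (378, 491 and 425 counts in wild type; 2, 1 and 0 in mutants; wild type to mutant ratio 428.8, counting interval 146.4 to 2082; log2 -8.57 ± 0.33, adjusted p = 2.52e-09, and -9.41 without s1), itih3a (log2 -3.40 ± 0.17, adjusted p = 1.89e-08), serpina1l (log2 -3.23 ± 0.17, adjusted p = 2.93e-08) and a2ml (log2 -2.38 ± 0.12, adjusted p = 3.07e-08). Of 12 hepatocyte markers 7 fell and 3 rose, but 8 of the 12 are on the acute phase list too. Of the 4 others, all named here, fabp10a and ttr fell (log2 -5.50 and -6.66), and apoa2 and apoba rose by less (log2 0.44 and 0.69). The apoa2 call was lost under upper-quartile scaling (edgeR adjusted p = 0.118) and without s1 (0.0892), s2 (0.084) or wt12 (0.116). The summed level of the 12 was 4228 to 5724 CPM in wild type and 4141 to 4565 CPM in mutants. The liver fatty acid carrier gene fabp10a went from 365.3 ± 117.8 to 8.09 ± 0.593 CPM. The part of fewer or altered hepatocytes in these results was not tested.

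Genes listed for the hypothalamic circuit of leptin, called hypothalamic genes here, were low in these whole bodies. Which tissue their transcripts came from is not shown, and not all are made only in the hypothalamus. Of 15 tested, 2 rose and 7 fell (median log2 -0.77), against 30.5% and 31.8% of all genes. The precursor gene of melanocortins, pomca, had 27, 28 and 30 counts in wild type and 167, 62 and 99 in s1, s2 and s3 (log2 1.95 ± 0.34 SE, edgeR adjusted p = 0.000473). The appetite-promoting neuropeptide gene npy fell from 5.36 ± 0.395 to 2.92 ± 0.0888 CPM (log2 -0.88 ± 0.19, adjusted p = 0.00164). The agouti-related peptide gene agrp did not pass (log2 -1.09 ± 0.44, adjusted p = 0.0501, 36 to 85 counts in wild type and 12 to 39 in mutants). Ghrelin gene ghrl fell (log2 -1.99 ± 0.60, adjusted p = 0.0123), but not without s1 or s3 (adjusted p = 0.0583 and 0.0535), and its value was -3.21 without s2. The genes crhb (log2 -1.15 ± 0.21, adjusted p = 0.000489), pmchl (log2 -1.11 ± 0.28, adjusted p = 0.00487) and mrap2a (log2 -0.91 ± 0.26, adjusted p = 0.0101, lost without wt13 at 0.0528) fell. The galanin gene gal passed narrowly (log2 0.63 ± 0.25, adjusted p = 0.0496) and lost its call without any of s1, s2, s3, wt12 and wt13, where the adjusted p ran from 0.0762 to 0.162.

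Because lepb and il11a mark regenerating fin and heart, genes known from those settings were read as well. Of 29 tested, 23 rose and 2 fell (median log2 1.95), against 30.5% and 31.8% of all genes. This list too was chosen with earlier results of these data known, and nothing is read from these counts. The largest rises were those of il1b (log2 7.59 ± 0.77 SE, edgeR adjusted p = 0.000457, and 6.91 without s2) and fosl1a, an AP-1 subunit gene, from 2.16 ± 0.593 to 324.3 ± 4.65 CPM (log2 7.23 ± 0.19, adjusted p = 3.99e-10), together with mmp9 and mmp13a above. The galectin gene lgals2b fell (log2 -1.60 ± 0.16, adjusted p = 7.04e-06). The fall of fgf20a, a growth factor gene needed to start fin regeneration, was small (log2 -0.56 ± 0.21, adjusted p = 0.039), and it did not pass when any 1 library was left out (adjusted p 0.0516 to 0.116). The list shares mmp9, mmp13a, junba and junbb with the STAT3 targets.

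**Figure D4:**
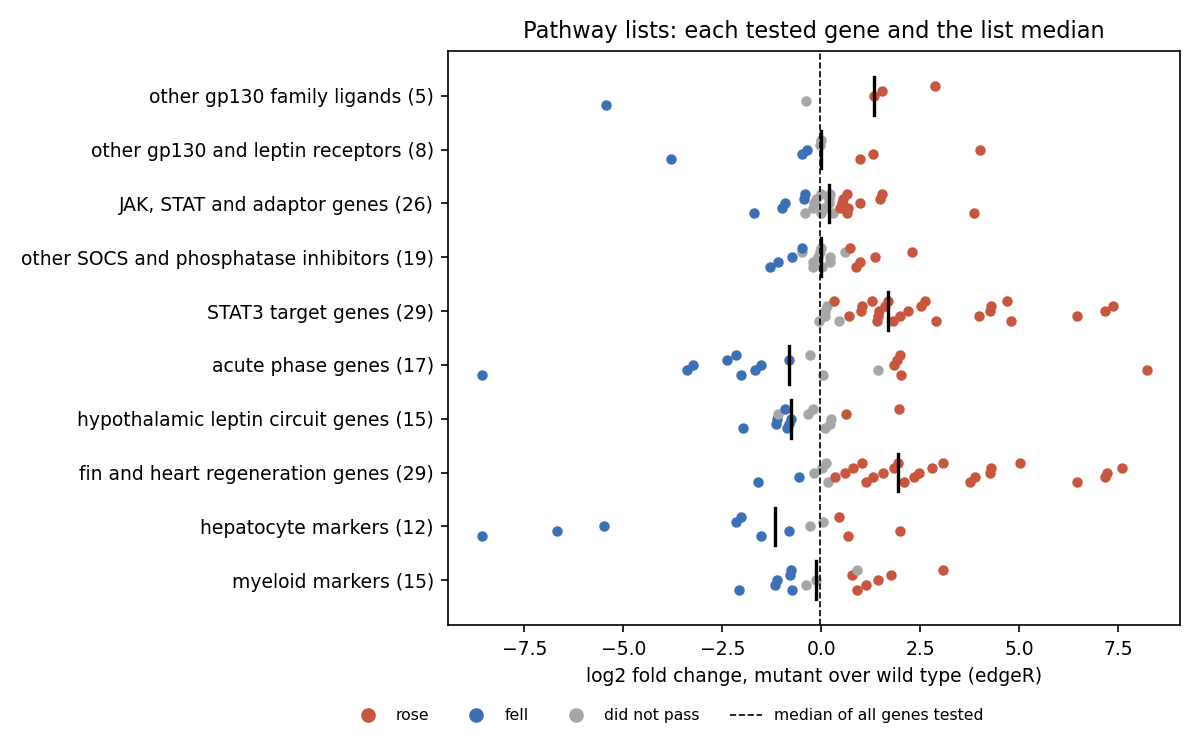
Fitted log2 fold change of mutant over wild type (x axis) for each tested gene of 10 lists (rows, with the number tested), coloured by whether the gene rose, fell or did not pass an adjusted p of 0.05. Black bars are list medians, such as 1.68 for STAT3 targets and -0.82 for acute phase genes, and the dashed line is the median of all genes at -0.04.

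White blood cells are a source of cytokines, so their markers were set beside the ligands. Of 15 myeloid genes tested, 6 rose and 6 fell (median log2 -0.13), against 30.5% and 31.8% of all genes. The summed level of all 20 matched was 105.7 to 150.1 CPM in wild type and 145.4 to 229.6 CPM in mutants. The general leukocyte markers lcp1 (log2 -1.11 ± 0.16 SE, edgeR adjusted p = 0.000117) and ptprc (log2 -0.75 ± 0.22, adjusted p = 0.0113, lost without s2 or wt12 at 0.0558 and 0.0614) and the macrophage receptor csf1ra (log2 -1.17 ± 0.15, adjusted p = 4.08e-05) fell, while an mpeg1 copy (ENSDARG00000043093) rose (log2 1.77 ± 0.43, adjusted p = 0.0114, lost without wt13 at 0.0819) and another copy (ENSDARG00000055290) fell (log2 -0.78 ± 0.15). The other genes that fell were csf1rb (log2 -2.07) and coro1a (log2 -0.78), and the others that rose were marco (log2 0.91), cybb (log2 0.77) and 3 copies of mfap4 (log2 1.13, 1.44 and 3.08). The neutrophil gene lyz had 4, 2 and 8 counts in wild type and 0, 0 and 1 in mutants. The part of myeloid cells in the ligand levels was not tested.

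Among the mutant libraries some of the genes varied more than others. Relative to the mean of s1 and s3, library s2 held 3.20 times as much il6, 1.77 times as much il11a and 1.71 times as much il11b. For the other 7 genes the ratio ran from 0.927 for lifra to 1.15 for lepr. For the interleukin 11 genes such a gap was uncommon: of 14119 genes with a mutant mean of at least 5 CPM, 141 had at least 1.5 times as much in s2, which is 0.999% of them, and the median ratio was 1.0097. The gene il6, with a mutant mean of 1.06 CPM, is not among those genes. A high s2 was not particular to the interleukins 6 and 11. Without s2 the fitted log2 fold change of il6 moved from 3.78 to 3.00. It moved by less for il11a (8.46 to 8.14) and il11b (8.09 to 7.79). For some other listed genes it moved down by more than 1.5-fold. These were il1b (7.59 to 6.91), cxcl8a (5.015 to 4.313), mmp13a (6.46 to 5.82), saa2 (8.21 to 7.07) and ghrl (-1.99 to -3.21). The coefficient of variation over the 3 mutant libraries was 33.2% for il11b, 35.3% for il11a and 73.4% for il6. For the other genes it ran from 3.34% for il6st to 11.6% for lepr, with 5.52% for lepa and 7.86% for lepb. Counting error is part of the spread of il6, which had 11 to 36 counts per mutant library.

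**Figure D5:**
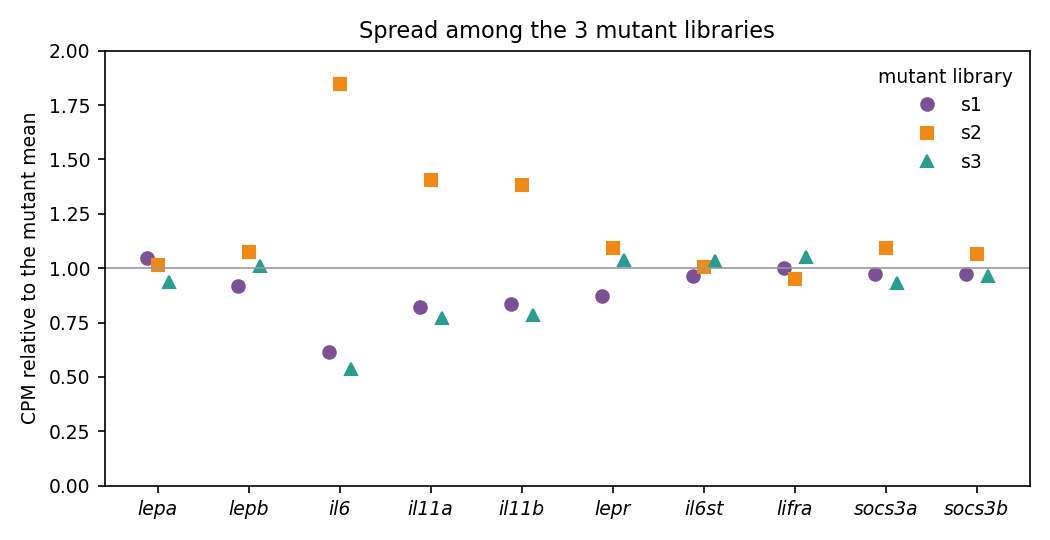
CPM of each gene in mutant libraries s1, s2 and s3 divided by the mean of the 3 (y axis, linear). Library s2 stands farthest above the others for il6, il11a and il11b, while lepa, lepb, the receptors and the socs3 genes stay closer to 1. For lepb, lepr, socs3a and socs3b s2 is also the highest library, by less.

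Genes closest in level and pattern to lepb and il11a were found by the distance between log2(CPM + 0.5) values over the 6 libraries. For lepb the nearest were scpp8, a secretory calcium-binding phosphoprotein gene, at a distance of 2.62, il1b at 2.71, the chemokine gene cxcl18b at 3.03, inka2 at 3.27 and mmp13a at 3.55. For il11a the nearest was lepa at 1.67, followed by plaua, a plasminogen activator gene, at 2.07, batf2 at 2.196, bmb at 2.35 and the receptor gene gpr84 at 2.46. The chemokine gene cxcl18b went from 1.24 ± 0.420 to 179.2 ± 69.9 CPM, and plaua from 0.517 ± 0.203 to 25.7 ± 13.4 CPM (SD, n = 3 each). The likeness rests on 6 libraries in 2 genotypes and is mostly the difference between genotypes.

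Genes beside the 10 on their chromosomes were called about as often as genes in general. Taking the 2 nearest tested genes on each side, 40 neighbours in all, 12 rose (30%, against 30.5% of all genes), 14 fell (35%, against 31.8%) and 14 were not called, with a median log2 fold change of -0.03 and a range from -2.36 to 1.77. The genes adjoining lepb were prrt4b, which fell (log2 -1.03 ± 0.18 SE, edgeR adjusted p = 0.00048), and on the other side si:dkey-21o22.2, which was not called (log2 -0.26 ± 0.28, adjusted p = 0.443). The next gene beyond prrt4b, impdh1, rose (log2 0.56 ± 0.11, adjusted p = 0.00078). Next to lepa, with starts 3 kb apart, lay rbm28, an RNA-binding protein gene, which rose (log2 0.99 ± 0.10, adjusted p = 6.29e-06). The genes adjoining il11a were rasip1, which rose (log2 0.73 ± 0.18, adjusted p = 0.00425), and nat14, which was not called (log2 0.16 ± 0.15, adjusted p = 0.383). None of the 10 genes lies on chromosome 11, which carries utp3.

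The authors' deposited table of the same contrast lists 9 of the 10 genes among its 8574 genes, in which the smallest absolute log2 fold change is 0.585; lifra is not listed there. In the authors' deposited table lepb is at log2 12.18 with a standard error of 1.03, lepa at 6.999 with 0.51, il11a at 8.48 with 0.64 and il11b at 8.26 with 1.06. The authors' deposited table gives il6 as 3.83 with 0.98, il6st as 2.09 with 0.11, lepr as 0.97 with 0.14, socs3a as 5.31 with 0.15 and socs3b as 3.83 with 0.14.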

How the data were processed

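PolyA RNA of whole zebrafish embryos was measured in 3 wild type and 3 sas10 mutant libraries. Per the file headers, the authors made the deposited raw counts with featureCounts 2.0.1, counting read pairs over exons by gene on the Ensembl GRCz11 annotation, with no strand option. The submitters' processing notes also name fastp 0.20.0, HISAT2 2.2.1, Salmon 0.12 and DESeq2 1.40.2. A second deposited table holds the authors' log2 fold changes and standard errors. The deposited table of ribosomal RNA precursor reads was not used here. Column headings give each library's genotype, not its numbered replicate.

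Of 32520 identifiers, 29201 had a symbol in the name table. Where duplicates shared 1 symbol, as for SOCS3, the copy was told apart by the chromosome of the RefSeq gene. The edgeR package 4.0.16, run in R 4.3.3, was applied to the counts as deposited (TMM scaling, filterByExpr, robust quasi-likelihood test, Benjamini-Hochberg adjustment over all genes tested, threshold 0.05). Standard errors were derived from the quasi-likelihood statistic. For lepa, lepb, il6, il11a and il11b, with few wild type counts, they were smaller than those of DESeq2. For lepb the values were 0.25 and 1.03, and for il11b 0.53 and 1.05. Small standard errors of genes near 0 counts in 1 genotype are therefore no measure of precision. CPM used scaled library sizes, and TPM was computed from counts and exon lengths. The script was tested on simulated counts in which few genes changed, each by less than the ligands did here. That test therefore does not cover scaling or calls where most genes differ. Ratios against a genotype with up to 9 counts in all carry exact 95% intervals from the summed counts, which cover counting error only, as does depth in general.

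The genes and lists were chosen with earlier results of these data known. The 8 lists of pathway genes and 4 of cell or tissue markers held 219 symbols beyond the 10 genes, of which 15 were not matched. In each pathway list, the called genes named are up to 4 of largest change in the direction of most calls and up to 3 in the other, with a few fixed by name. The 20 matched marker genes of whole larvae (among them muscle, brain, cartilage, blood, eye and heart) were all detected, while opn1sw1 and crygn2 were not matched. Of these 20 genes, 6 rose and 6 fell, against 30.5% and 31.8% of all genes. Epidermis markers were also counted, 4 rising and 7 falling of 12, against 30.5% and 31.8% of all genes. Alternatives were RLE and upper-quartile scaling, looser and stricter filters, DESeq2 1.42.0, limma voom (limma 3.58.1), RPKM in place of TPM, and leaving out each library. Descriptions of promoter motifs and protein sequences were planned and not made.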

Additional observations from a re-analysis of the deposited data

How the results depend on the processing

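No paired analysis was possible because the columns of the count table show the genotype of a library but not which numbered replicate it is. Of 276 recomputed counts and values for the lists, all genes and utp3, 256 stayed within 1.5 times (utp3 stayed called). Upper-quartile scaling moved the median log2 fold change of all genes from -0.04 to -0.17; under it 8 genes of the kinase, STAT and adaptor list fell instead of 5, and 1 hypothalamic gene rose instead of 2. With at least 1 CPM in 3 libraries and 100 counts, 1 hypothalamic gene rose. With no filter beyond 1 count, and with DESeq2, 1 regeneration gene fell instead of 2. Leaving out 1 library at a time gave 3 to 5 other ligands rising (5 without s1 or wt13), 1 to 3 other receptors falling (1 without s2), 3 to 5 kinase, STAT and adaptor genes falling (3 without s2), 1 to 2 hypothalamic genes rising, and 1 regeneration gene falling in each case.

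Of 119 recomputed log2 fold changes of the 10 genes, 1 changed sign, that of lifra without wt12 (-0.0592); without wt13 it was 0.4417 and the gene was called higher, which made 10 called in place of 9. With the stricter filter 8 were called, since il6 was not tested. The largest moves were those of il11b (10.74 without wt13), lepa (8.47 without wt12), il11a (9.37 without wt13) and il6 (3.00 without s2). For il11b no wild type count is left without wt13, so that value does not estimate a ratio. With limma voom the values were 7.58 for lepa and 11.61 for lepb. The fitted fold changes of the ligands rest on 2 to 9 wild type counts each. RPKM was 0.521 to 0.522 times TPM for each of the 10 genes in mutants and 0.443 to 0.501 times in wild type, and gave the same order of genes. The causes of these moves were not tested.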
